A study of Homo sapiens with 36 samples.

Results

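The 3 libraries labeled PERK KO at day 5 of cardiac differentiation were compared with the 3 libraries of undifferentiated wild-type cells at day 0, gene by gene. These are 6 of the 36 libraries of the study, and 19772 of 58721 gene identifiers had enough counts to be tested. H1 is an established human embryonic stem cell line, and every library came from it. The day 0 cells were wild type and were kept in E8, a defined stem cell medium that holds insulin, FGF2 and TGF-beta. The day 5 cells were labeled PERK KO and had been moved to a cardiac differentiation medium whose listed ingredients name none of these 3 before insulin was added at day 7. They received the WNT activator CHIR99021 at days 0 to 1, heparin from day 1, and IWP2, which blocks the secretion of WNT ligands, from day 2 to day 5. Genotype, day and medium therefore differ together between the 2 groups, and their parts in a difference cannot be told apart. PERK KO cells at day 0, in E8, and wild-type cells at day 5, in the differentiation medium, are given beside the results where they bear on them. The sources used here do not say how PERK was targeted, how many clones were used, or whether replicates were separate cultures, so p-values measure only the spread between these samples.

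PERK, encoded by EIF2AK3, is a kinase in the membrane of the endoplasmic reticulum (ER). Under ER stress it phosphorylates the translation factor eIF2, which slows protein synthesis while favoring translation of the transcription factor ATF4. ATF4 in turn raises genes of amino acid synthesis, amino acid transport and tRNA charging. Human embryonic stem cells stay undifferentiated under FGF and TGF-beta or NODAL signals. When NODAL and BMP signals are low they tend to take a neural path, whereas a WNT pulse followed by WNT block leads them through primitive streak and mesoderm to heart muscle.

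Wild-type day 0 was chosen for this comparison from the expression values themselves, so the closeness that follows is a description with no test. The p-values of single genes further on likewise belong to a pair of groups chosen with these values in view. The distance of a library from a group was the root mean square difference of its log2 CPM (counts scaled to library size) from the group mean over all tested genes. The PERK KO day 5 libraries lay 1.15, 1.14 and 1.15 from wild-type day 0, and 1.2, 1.18 and 1.19 from wild-type day 1. Distances to later wild-type days were larger, from 1.36 at day 2 to 1.98 at day 10. Day 1 and day 0 exchanged places with the measure used: the mean absolute difference was 0.754 for day 1 and 0.795 for day 0, and 7103 genes (35.9%) were called against day 1 but 8795 against day 0. The distance to PERK KO day 0 was 1.15 on average, equal to that from wild-type day 0, and the nearest group of all was PERK KO day 3 at 0.68. The distance to wild-type day 5, the same day of differentiation, averaged 1.6.

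**Figure D1:**
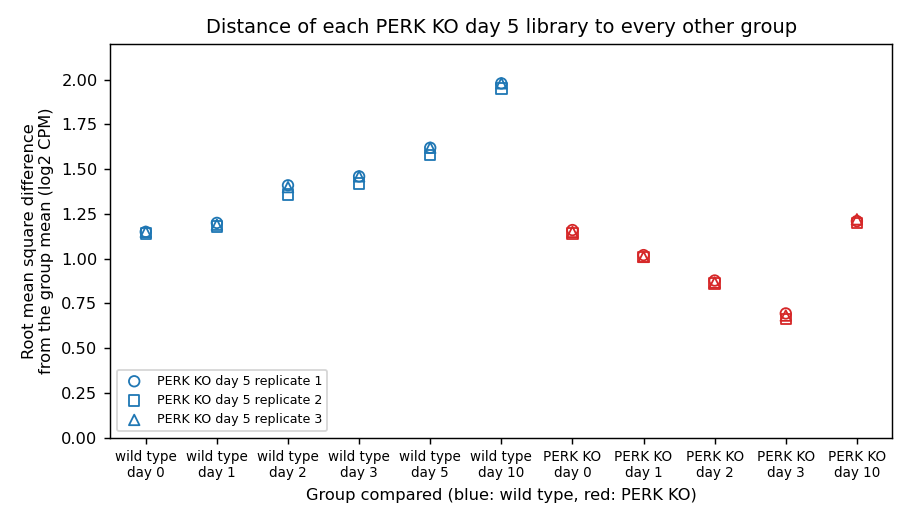
Each point is the distance of 1 PERK KO day 5 library (marker shape: replicate) from the mean of another group, as the root mean square difference in log2 CPM over 19772 genes; blue points are wild-type groups and red points PERK KO groups. Among wild-type groups the distance is lowest at day 0 (1.14 to 1.15), close to that of day 1 (1.18 to 1.2), and highest at day 10 (1.95 to 1.98).

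The 6 libraries held 14.1 to 18.7 M counted fragments. Counted transcripts were longer in the PERK KO day 5 libraries, with a count-weighted effective length of 2663 to 2722 nt, than at wild-type day 0, with 2342 to 2385 nt. The median log2 fold change ran from -0.18 in the shortest of 5 equal groups of genes (up to 982 nt) to 0.24 in the longest (from 3557 nt). With a transcript length offset in the fit 4050 genes were called higher and 4258 lower, against 4214 and 4581 without. In the PERK KO day 0 group, replicate 2 differed from the other pair, with an effective length of 1736 nt against 2540 and 2495 nt. It is not in the main comparison, and day 0 values of the genes described in full are given per library for that reason, while means over the PERK KO days and fitted values include it. Within the PERK KO libraries, those of days 3 and 5 also shared a pattern that those of days 0, 1, 2 and 10 did not. NDRG1 and ST3GAL1, which lie near each other on chromosome 8, and ZFP41, farther along the same arm, had 2, 3 and 2 reads in the 6 libraries of days 3 and 5 together. In the 12 other PERK KO libraries NDRG1 had 30 to 803 reads each, ST3GAL1 51 to 141 and ZFP41 13 to 174. The pseudogene UBBP4 averaged 68.7, 17.8, 15.2 and 9.18 CPM at PERK KO days 0, 1, 2 and 10, but 0.264 and 0.108 CPM at days 3 and 5. The labels name no clone or batch, and whether the day 3 and day 5 libraries came from other cells than the rest was not tested.

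EIF2AK3 itself was not called. Its counts at PERK KO day 5 were 16.8, 15.9 and 17 CPM, against 18.1, 24.2 and 23.5 CPM at wild-type day 0 (log2 fold change -0.4 ± 0.2 SE, adjusted p = 0.1). A fit of only the 6 compared libraries called it lower (adjusted p = 0.0121), and leaving out replicate 2 of PERK KO day 0 together with replicate 3 of wild-type day 2, which stand apart from their groups, did so too (adjusted p = 0.0403). At PERK KO day 0 it stood at 20.1, 11.9 and 18.7 CPM. Whole-gene counts do not show which exons carry a lesion, so these values check neither the label nor the loss of protein.

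Across all genes 8795 of 19772 (44.5%) were called, 4214 higher (21.3%) and 4581 lower (23.2%) at PERK KO day 5 than at wild-type day 0. Of the called genes 4681 (23.7% of those tested) changed at least 2-fold. The 3 libraries of 1 group lay wholly above or below those of the other for 12642 genes (63.9%), so libraries that do not overlap are common here. These shares are the background for each gene group that follows, and the median log2 fold change of all genes was 0.0. In the companion comparisons 4177 genes (21.1%) were called between PERK KO and wild type at day 0, 2468 higher (12.5%) and 1709 lower (8.64%) in PERK KO, or 304 in a fit of only those 6 libraries. Between PERK KO day 5 and PERK KO day 0 the count was 9645 (48.8%), 4245 higher (21.5%) and 5400 lower (27.3%) at day 5. The first shares its wild-type libraries, and the second its PERK KO day 5 libraries, with the main comparison, so no overlap is drawn between them. A fold in bulk RNA can come from fewer cells of a type or from less RNA per cell, and these cannot be told apart.

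Pluripotency genes went both ways. Of 20 pluripotency genes 10 were lower, 5 higher and 5 not called, with a median log2 fold change of -0.27 (6 lower in a limma fit of log2 TPM). POU5F1, the OCT4 factor that holds cells undifferentiated, was counted at 960, 916 and 960 CPM at PERK KO day 5 and at 2661, 2216 and 2118 CPM at wild-type day 0 (log2 fold change -1.3 ± 0.24 SE, adjusted p = 4.37e-05). The groups did not overlap, yet the day 5 value stayed far above the 62.9 CPM of wild-type day 5. NANOG, its partner, stood at 23, 21 and 25.4 CPM against 168, 181 and 178 CPM, a log2 fold change of -2.93 ± 0.2 SE (adjusted p = 5.81e-13). Here too the groups did not overlap, and wild-type day 5 averaged 0.496 CPM.

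SOX2, a factor shared by stem cells and the neural plate, went the other way. It was counted at 509, 440 and 454 CPM at PERK KO day 5 and at 269, 251 and 251 CPM at wild-type day 0 (log2 fold change 0.86 ± 0.2 SE, adjusted p = 0.000946). LIN28A, an RNA-binding protein that blocks let-7 maturation, rose from 1521, 1435 and 1441 CPM to 2463, 2388 and 2445 CPM (0.73 ± 0.14 SE, adjusted p = 5.47e-05). Both genes were above every wild-type day 0 library in all 3 day 5 libraries, whereas wild-type day 5 averaged 4.74 CPM for SOX2 and 838 CPM for LIN28A. PRDM14 (24.2 to 49.3 CPM), SALL4 (202 to 297 CPM) and KLF4 (3.47 to 11.4 CPM) were the other called increases of the list. DPPA4 (797 to 466 CPM) and TDGF1 (569 to 335 CPM) were lower, and DNMT3B, at 1258 and 1146 CPM, was not called.

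Among the increases that the naming rule covers, the largest fitted log2 fold changes were those of the neural plate and forebrain factors SIX3, LHX5 and SOX1. Of 25 genes listed 23 were tested, and 15 were higher, 3 lower and 5 not called, with a median log2 fold change of 3.18 (3.3 with genes uncounted in 1 group set at their bound). SIX3, a homeobox factor of the anterior neural plate on chromosome 2 (chr2:44941898-44946077, GRCh38), was counted at 125, 104 and 104 CPM at PERK KO day 5. At wild-type day 0 its libraries held 0, 0 and 0.0701 CPM, a single read, which sets the ratio at 4970 with a 95% counting interval of 891 to 196000. The gene went from nearly absent to a level above that of NANOG in the same libraries.

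LHX5, a LIM homeobox factor of the forebrain, reached 126, 116 and 111 CPM from 0, 0.13 and 0 CPM, a ratio of 2640 with a counting interval of 729 to 21800. FEZF1, a zinc finger factor of the forebrain, reached 156, 146 and 126 CPM from 0.329, 0.324 and 0.491 CPM (log2 fold change 8.53 ± 0.26 SE, adjusted p = 2.84e-21). SOX1, an early marker of neural cells, had no read at wild-type day 0 and 14.1, 12.9 and 15.5 CPM at PERK KO day 5, at least 212-fold higher over a floor of 3 counts in the group. These 4 factors were near 0 at PERK KO day 0 and wild-type day 5: their highest value in a PERK KO day 0 library was 0.432 CPM, for FEZF1, and their highest mean at wild-type day 5 was 0.225 CPM, for SIX3.

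OTX2, a head organizer and forebrain factor that stem cells already express at a low level, had the smallest p-value of the increases that the naming rule covers. It was counted at 359, 335 and 331 CPM against 13.2, 10.6 and 11.2 CPM (log2 fold change 4.87 ± 0.12 SE, adjusted p = 3.12e-23). At PERK KO day 0 it already stood at 30.6, 32 and 28.7 CPM, above each wild-type day 0 library. OTX2 was also higher in wild-type cells during differentiation, averaging 200 CPM at day 2, 107 CPM at day 3 and 85.1 CPM at day 5. ZIC1, a zinc finger factor of the neural plate border, reached 62, 60.7 and 58.6 CPM from 0.263, 0 and 0.28 CPM (8.35 ± 0.43 SE, adjusted p = 5.31e-16). HESX1 rose from 2.13 to 36.4 CPM on average. These anterior factors were high together in each of the 3 libraries.

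The set was not complete. PAX6, the usual marker of neuroectoderm in human cells, was called but reached only 0.862, 0.702 and 0.92 CPM. LHX2 (0.107 CPM) and EMX2 (0 CPM), factors of the later telencephalon, were at or near 0 in the day 5 libraries and averaged under 0.3 CPM at wild-type day 0. SIX6 (1.15 to 0.216 CPM), OTX1 (3.6 to 1.34 CPM) and the hindbrain border gene GBX2 (3.4 to 0.555 CPM) were lower. The dorsal neural tube factors OLIG3 and LMX1A joined the increases: OLIG3 at 24.9, 20.9 and 26.6 CPM from 2 reads in all, and LMX1A at 6.95, 8.38 and 6.28 CPM from 2 reads in all. IRX1, a homeobox factor of the neural plate among other tissues, reached 38.8, 35 and 37 CPM from 3 reads in all. It averaged 19.5 CPM at wild-type day 3 and 10 CPM at wild-type day 5.

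Along the PERK KO days 0, 1, 2, 3, 5 and 10 SIX3 averaged 0.0801, 0.0188, 0.846, 19.8, 111 and 455 CPM. FEZF1 averaged 0.353, 0.164, 0.703, 7.36, 142 and 329 CPM over the same days. Both were thus higher at day 10 than at day 5. SOX1 averaged 0.0195, 0.0682, 0.209, 5.15, 14.1 and 0.235 CPM and was counted mainly at days 3 and 5, the days that share the pattern on chromosome 8 described above. OLIG3 did likewise, with 0, 0.633, 0.997, 14.3, 24.1 and 0 CPM. Both were among 6 genes, picked after values were seen, that were counted mainly at PERK KO days 3 and 5. ZIC1, at 0.313, 2.18, 0.256, 25.2, 60.4 and 5.91 CPM, also peaked at day 5, while no wild-type day averaged over 1.71 CPM.

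Genes of neurons were more often lower. Of 20 genes written 15 were tested, and 8 were lower, 2 higher and 5 not called. MAP2, a microtubule protein of dendrites, was 1 of the 2 higher, at 100, 87.5 and 103 CPM against 2.57, 3.43 and 5.96 CPM (log2 fold change 4.61 ± 0.35 SE, adjusted p = 4.07e-12). INSM1, a zinc finger factor of neuroendocrine and neural precursors, was the other (0.596 to 3.24 CPM). GAP43, a growth cone protein, fell from 25.7 to 3.88 CPM (-2.73 ± 0.23 SE), and ELAVL3, a neuronal RNA-binding protein, from 2.67 to 0.29 CPM. The proneural factor NEUROG2 (0.0563 CPM) was barely counted. Surface ectoderm and neural crest genes were mixed, with 12 of 23 higher and 5 lower. GRHL2, an epithelial factor, rose from 27 to 43.6 CPM and SOX9, a neural crest and cartilage factor, from 7.53 to 19.1 CPM. DLX5 reached 6.21, 5.19 and 4.9 CPM from no read (at least 80.9-fold higher), TFAP2A 4.17 CPM and GATA3 6.05 CPM on average. The lower count was 2 without PERK KO day 5 replicate 1 or without wild-type day 0 replicate 2, and 3 without PERK KO day 5 replicate 3. KRT18, a keratin of simple epithelium, was lower (658 to 215 CPM), and the neural crest factors SOX10 and PAX3 were not called. CDH1, the epithelial cadherin, rose from 177, 206 and 209 CPM to 511, 504 and 523 CPM (1.38 ± 0.17 SE, adjusted p = 5.32e-08), and CDH2, the neural cadherin, was not called.

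**Figure D2:**
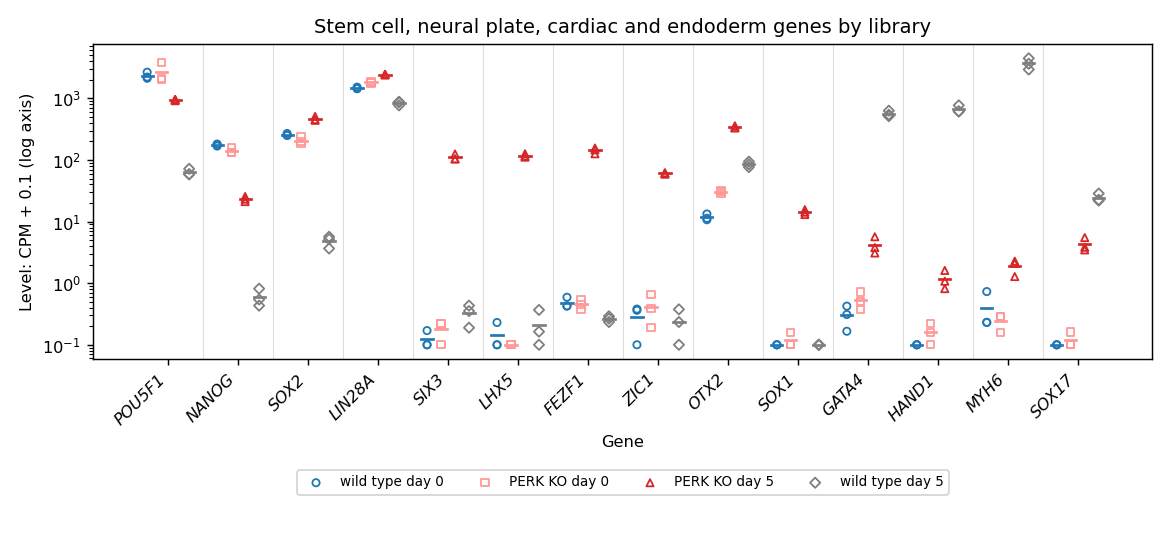
Level of 14 genes in each library as CPM + 0.1 on a log axis, with 3 libraries per group (points) and the group mean (bar). SIX3, LHX5, FEZF1, ZIC1 and SOX1 lie near the bottom of the axis in wild-type day 0, PERK KO day 0 and wild-type day 5 libraries and between 12.9 and 156 CPM at PERK KO day 5, while GATA4, HAND1 and MYH6 are high only in the wild-type day 5 libraries.

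Markers of the cardiac path were counted far below their wild-type day 5 levels. GATA4, a cardiac and endoderm factor, was called at 2.99, 5.57 and 3.68 CPM against 0.0658, 0.324 and 0.21 CPM, whereas wild-type day 5 averaged 562 CPM. HAND1, a mesoderm and cardiac factor, reached 0.977, 1.51 and 0.715 CPM from no read (at least 15.9-fold higher), against 665 CPM at wild-type day 5. MYH6, the atrial myosin heavy chain, stood at 2.18, 2 and 1.18 CPM against 3683 CPM at wild-type day 5. KDR, a receptor of vascular and cardiac progenitors, fell from 102 to 28.8 CPM, and TMEM88, a membrane protein of cardiac progenitors, rose from 1.22 to 15.7 CPM, against 400.0 and 248 CPM at wild-type day 5. In all 7 of 19 cardiac factors were higher and 4 lower, and 11 of 21 sarcomere genes were higher (7 in the limma fit of log2 TPM). TPM1, a tropomyosin of many cell types, had the highest level of the sarcomere list, at 756, 704 and 747 CPM from 227, 213 and 205 CPM, and TTN, the giant titin, averaged 46.6 against 16.4 CPM, where the fold turned to -0.37 and lost its call with a transcript length offset. NKX2-5 and TNNT2 were not called.

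Endoderm genes were also higher, 12 of 14 with none lower (7 in a fit of only the 6 compared libraries), and the highest of them averaged 11.7 CPM. SOX17, an endoderm factor, was counted at 3.73, 5.4 and 3.37 CPM from no read (at least 62.3-fold higher), with 24.2 CPM at wild-type day 5. GATA6 reached 1.55, 3.03 and 1.79 CPM from no read (at least 31.8-fold higher), against 231 CPM. Among primitive streak genes, EOMES rose to 1.84, 2.32 and 2.09 CPM from 0.198, 0.259 and 0.35 CPM. TBXT, at 0.23, 0.432 and 0.255 CPM, was called only without wild-type day 0 replicate 1 (adjusted p = 0.00215). HOX genes, which pattern the trunk, were near 0: of 11 tested 2 were called, HOXB2 and HOXB3, and no member averaged over 0.704 CPM.

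Summed marker sets gave these levels. The 6 stem cell markers summed to 4541 to 4766 CPM in the PERK KO day 5 libraries and 5359 to 6007 CPM at wild-type day 0. LIN28A was the largest part of the PERK KO day 5 sum, at a mean of 2432 CPM against 1466 CPM at wild-type day 0. It and SOX2 were higher, while POU5F1 (2332 to 946 CPM), NANOG (176 to 23.1 CPM), TDGF1 and DPPA4 were lower. The 6 neural plate markers summed to 213 to 241 CPM against 2.01 to 3.62 CPM, with SOX1 at 0 in the latter. The 8 mesoderm and cardiac markers summed to 12.1 to 15.3 CPM against 7.25 to 7.78 CPM, and to 4470 to 6325 CPM at wild-type day 5. The 4 endoderm markers summed to 7.3 to 12 CPM against 0.194 to 0.461 CPM. The 4 markers of fibroblasts and stroma summed to 190 to 225 CPM against 242 to 254 CPM, nearly all from COL1A1, with DCN at 0. The 6 markers of trophoblast and amnion summed to 29.4 to 33.7 CPM against 15.5 to 20.7 CPM, and the 7 of neural crest and surface ectoderm to 12.3 to 14.2 CPM against 2.78 to 3.69 CPM. The 4 of endothelium and blood summed to 5.8 to 6.9 CPM against 0.593 to 1.36 CPM, with TAL1, a blood and endothelial factor, alone above 1 CPM, at a mean of 5.82 against 0.0683 CPM. The part of such other cells in any gene's difference was not tested.

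FGF signaling acts through the ERK kinase cascade, and its strength is commonly read from feedback genes that the cascade switches on. Of 21 ligands, receptors and feedback genes 13 were lower, 6 higher and 2 not called, with a median log2 fold change of -1.3. DUSP6, a phosphatase that shuts off ERK, was counted at 5, 3.89 and 5.01 CPM at PERK KO day 5 and at 455, 579 and 559 CPM at wild-type day 0. Its log2 fold change of -6.84 ± 0.19 SE (adjusted p = 5.33e-22) had the smallest p-value of the decreases that the naming rule covers. The PERK KO day 0 libraries lay between, at 194, 226 and 196 CPM, and wild-type day 5 averaged 239 CPM in the same medium.

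SPRY4, an inhibitor of receptor signaling, stood at 12.1, 10.9 and 15.3 CPM against 295, 395 and 397 CPM (-4.82 ± 0.19 SE, adjusted p = 2.44e-18). It was also lower at PERK KO day 0, with 107, 61.6 and 115 CPM. ETV5, an ETS factor downstream of ERK, fell to 4.08, 2.59 and 2.25 CPM from 87.6, 91 and 99.7 CPM (-4.97 ± 0.18 SE, adjusted p = 5.6e-19), while its PERK KO day 0 libraries, at 108, 115 and 113 CPM, lay above all of these. The ETV5 difference between the genotypes at day 0 was not called (adjusted p = 0.206). ETV4 fell from 262 to 18.2 CPM, IL17RD from 171 to 22.7 CPM and the receptor FGFR4 from 146 to 38.4 CPM on average.

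Receptors and ligands went both ways: FGFR4 and the ligands FGF13 (48.5 to 13.4 CPM) and FGF19 (23.1 to 8.97 CPM) fell. FGFR3 rose to 236, 250 and 235 CPM from 12.8, 14.2 and 15 CPM (log2 fold change 4.11 ± 0.17 SE, adjusted p = 3.93e-18). FGFR2 rose from 77.5 to 252 CPM, FGFR1 from 542 to 1119 CPM and FGF2 from 71.7 to 160 CPM. At wild-type day 5 FGFR3 averaged 204 CPM, FGFR2 96.3 CPM, FGFR1 462 CPM and FGF2 7.31 CPM. DUSP4, another ERK phosphatase, was higher (12.2 to 22.7 CPM), so not every feedback gene fell. Along the PERK KO days DUSP6 averaged 205, 33.8, 84.7, 6.33, 4.63 and 166 CPM, so the lowest levels were those of days 3 and 5 and day 10 was high again.

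NODAL and BMP branches of the TGF-beta family separated. Of 24 genes 9 were higher, 9 lower and 6 not called, and the median log2 fold change was 0.15. NODAL, a ligand that sustains both the stem cell state and the primitive streak, fell to 1.38, 1.95 and 1.63 CPM from 44.2, 38.6 and 35.5 CPM (-4.57 ± 0.36 SE, adjusted p = 8.63e-12). LEFTY1, its secreted inhibitor and target, fell to 1.32, 0.432 and 1.12 CPM from 114, 78.3 and 70.9 CPM (-6.51 ± 0.37 SE, adjusted p = 5.67e-15). At PERK KO day 0 both overlapped wild-type day 0, with 26.6, 74.3 and 32.5 CPM for NODAL and 88.2, 210 and 85.1 CPM for LEFTY1. LEFTY2 (24.9 to 3.11 CPM), TGFB1 (20.3 to 3.81 CPM), SKIL (145 to 50.5 CPM) and SMAD7 (60.7 to 24 CPM) fell with them.

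Of the ID genes, dominant inhibitors of bHLH factors and common BMP targets, 3 of 4 rose. ID4 reached 64.1, 52.5 and 59.9 CPM from 1.32, 1.75 and 1.12 CPM (5.39 ± 0.21 SE, adjusted p = 1.89e-18). ID2 rose from 10.3 to 78.4 CPM and ID1 from 82.4 to 333 CPM, while ID3, at 138 and 92.3 CPM, was not called in the main fit. ID3 was called lower without the 2 libraries that stand apart (adjusted p = 0.000225) and without a filter on low counts (0.0166). Fits of only the 6 compared libraries (8.1e-05, or 8.44e-05 with a replicate block) and the limma fit of log2 TPM (0.048) also called it lower. The ligands BMP2 (1.04 to 15.5 CPM) and BMP4 (3.17 to 21.9 CPM) rose as well. Wild-type day 5 averaged 170 CPM for BMP2 and 521 CPM for BMP4. For ID1, ID2 and ID4 it averaged 338, 197 and 30.6 CPM. FST, which binds activin, reached 70.7, 71 and 75.8 CPM from 3.29, 5.7 and 3.5 CPM. The antagonists NOG and CHRD stayed under 1.4 CPM in both groups and were not called.

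Secreted WNT inhibitors did not change alike. Of 22 WNT genes 9 were higher, 6 lower and 7 not called. SFRP1, a secreted WNT inhibitor, rose to 1288, 1232 and 1244 CPM from 341, 401 and 390 CPM (1.73 ± 0.14 SE, adjusted p = 3.78e-11), the fourth largest gain in CPM of any called gene. FRZB, of the same family, rose to 120, 103 and 96 CPM from 1.65, 1.23 and 0.911 CPM (6.39 ± 0.28 SE, adjusted p = 2.61e-17). SFRP2, the third member, fell to 165, 160 and 160 CPM from 781, 904 and 871 CPM. The target gene AXIN2 was higher, at 37.5, 37.7 and 36 CPM against 10.4, 13.8 and 13.8 CPM, and the receptor FZD5 rose from 161 to 524 CPM. LEF1 (2.76 CPM) and SP5 (0.678 CPM), 2 other targets, were called higher at low levels, where wild-type day 5 averaged 107 and 10.1 CPM.

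Enzymes that break down retinoic acid changed in both directions. CYP26A1 was counted at 224, 224 and 210 CPM against 1.58, 1.88 and 2.17 CPM (6.87 ± 0.43 SE, adjusted p = 4.56e-14), and CYP26C1, its neighbor, at 13, 11.5 and 9.66 CPM against 0.263, 0.324 and 0.42 CPM, while CYP26B1 fell from 0.821 to 0.175 CPM. CRABP2, a carrier of retinoic acid, rose from 64.6 to 330 CPM, and 6 of 17 members were higher and 5 lower in all (3 lower without wild-type day 0 replicate 1 and 2 without replicate 2). Wild-type day 5 averaged 354 CPM for CRABP2 and 15.8 CPM for CYP26A1. Among 18 NOTCH genes tested 7 were higher and 7 lower. HES3, a repressor of neural progenitors, reached 49.4, 48.9 and 46.9 CPM from 1.05, 3.76 and 1.75 CPM (4.46 ± 0.34 SE, adjusted p = 5.7e-12). DLL1 rose from 3.38 to 24.4 CPM while DLL3 fell from 35.6 to 3.1 CPM, and HES5 was near 0 in both groups.

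**Figure D3:**
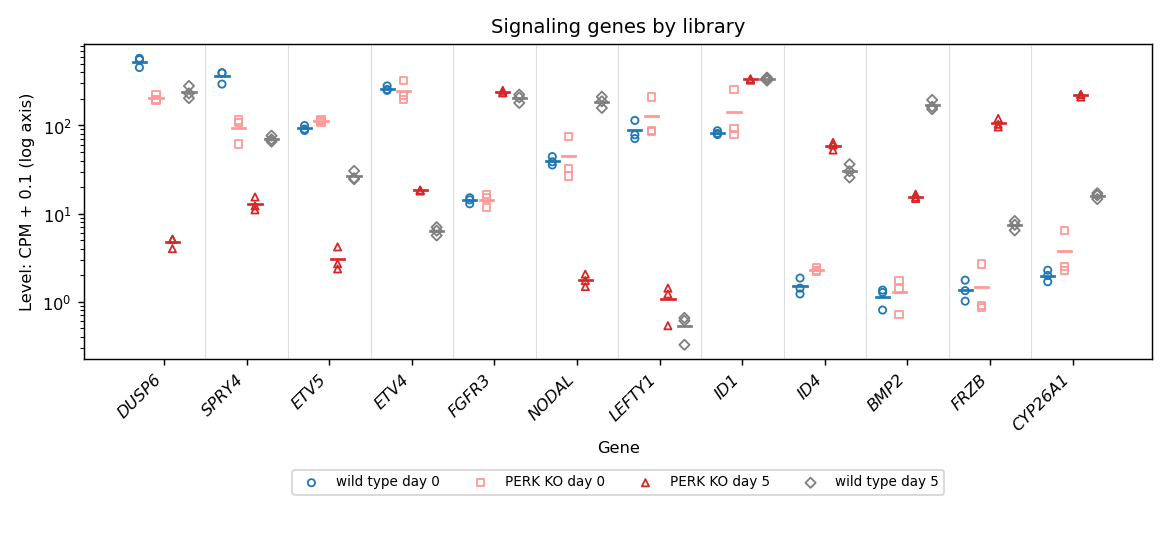
Level of 12 signaling genes in each library as CPM + 0.1 on a log axis, with 3 libraries per group (points) and the group mean (bar). DUSP6, SPRY4, ETV5, ETV4, NODAL and LEFTY1 lie below both day 0 groups at PERK KO day 5, and FGFR3, ID4, FRZB and CYP26A1 are far above both day 0 groups there.

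The integrated stress response is the program that ATF4 runs downstream of PERK and 3 other eIF2 kinases. No member of its 25 listed targets was higher at PERK KO day 5, and 19 were lower, with a median log2 fold change of -1.4. Fits of only the 6 compared libraries or of log2 TPM called 2 members higher, among them PPP1R15A. ATF4-dependent promoters often hold a composite CCAAT-enhancer-binding and activating factor element, searched here as TGATGNAA on both strands. ER chaperone promoters often hold the ER stress element, searched as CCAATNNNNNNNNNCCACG on both strands. In windows of 250 bases before to 50 after each RefSeq start site, 1270 of 35116 windows (3.62%) hold the first and 27 (0.0769%) the second. The RefSeq table (GRCh38.p14) has a window for 21 stress targets and 23 ER genes. The first motif is in 6 of the 21 (28.6%, against 4.46% of all genes with a window), ASNS, ATF3, CEBPG, CHAC1, FGF21 and JDP2. The second is in 7 of the 23 (30.4%, against 0.0916%), CALR, CANX, CRELD2, HSP90B1, HSPA5, PDIA6 and XBP1. The windows of 6 of these genes, which the naming rule covers and whose values follow, are shown 5′ to 3′ along the gene's strand with the match in capitals; for HSP90B1 the upstream of its 2 matches is shown.
ASNS, chr7:97872439-97872506, minus strand, match 68 bases before the start: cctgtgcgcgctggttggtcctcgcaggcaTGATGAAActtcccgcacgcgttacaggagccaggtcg
CHAC1, chr15:40953232-40953299, plus strand, match on the other strand: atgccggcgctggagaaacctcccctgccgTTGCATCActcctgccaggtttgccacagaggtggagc
HSPA5, chr9:125241361-125241439, minus strand: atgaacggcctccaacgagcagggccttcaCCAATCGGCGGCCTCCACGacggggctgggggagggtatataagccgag
XBP1, chr22:28800573-28800651, minus strand: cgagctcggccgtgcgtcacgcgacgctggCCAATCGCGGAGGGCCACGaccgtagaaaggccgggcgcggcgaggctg
PDIA6, chr2:10812823-10812901, minus strand: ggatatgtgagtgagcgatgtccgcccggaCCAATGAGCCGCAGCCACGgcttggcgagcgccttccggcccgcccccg
HSP90B1, chr12:103930186-103930264, plus strand: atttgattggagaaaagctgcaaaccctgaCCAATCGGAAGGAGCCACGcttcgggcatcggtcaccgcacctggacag
A match describes the letters of the window and shows no binding.

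ASNS, asparagine synthetase, was counted at 59.8, 52.6 and 59.5 CPM at PERK KO day 5 and at 242, 240 and 239 CPM at wild-type day 0 (log2 fold change -2.07 ± 0.15 SE, adjusted p = 1.95e-12). CHAC1, which degrades glutathione, stood at 12.6, 11.7 and 12.1 CPM against 67.5, 70.8 and 73.4 CPM (-2.54 ± 0.24 SE, adjusted p = 4.71e-10). The groups did not overlap for either gene. At PERK KO day 0, in stem cell medium, every library lay above wild-type day 0, with 254, 327 and 268 CPM for ASNS and 97.8, 181 and 99.3 CPM for CHAC1. At wild-type day 5 both were lower than at PERK KO day 5, with means of 23.9 and 5.22 CPM.

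SESN2, a stress-induced inhibitor of mTORC1, fell to 18.9, 22.8 and 20.5 CPM from 92.9, 94.9 and 98.3 CPM (-2.2 ± 0.16 SE, adjusted p = 1.12e-12). TRIB3, a pseudokinase that restrains AKT, fell from 25.1 to 4.85 CPM, and STC2, a secreted stanniocalcin, from 115 to 24.2 CPM. GDF15, a secreted stress hormone and also a p53 target, fell furthest, to 0.632, 0.54 and 0.562 CPM from 49.2, 74.7 and 66.4 CPM (-6.76 ± 0.35 SE, adjusted p = 6.98e-16). ATF4 itself fell from 569 to 284 CPM. DDIT3 (2.44 and 2.57 CPM), PPP1R15A (24.3 and 29.4 CPM), CEBPG (46 and 50.1 CPM) and XPOT (212 and 219 CPM) were among the 6 not called.

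Of 13 serine, proline and folate enzymes 9 were lower and 1 higher (median log2 fold change -1.07), and of 13 amino acid transporters 9 were lower and 2 higher (-1.09; 0 or 1 higher with any 1 library left out). PSAT1, of serine synthesis, fell to 185, 179 and 181 CPM from 415, 427 and 424 CPM (-1.21 ± 0.1 SE, adjusted p = 1.73e-11). PHGDH, the first enzyme of that path, fell from 878 to 335 CPM, and MTHFD2, of the mitochondrial folate cycle, from 239 to 94.6 CPM. SLC7A5, a carrier of large neutral amino acids, fell to 215, 216 and 244 CPM from 745, 889 and 849 CPM (-1.88 ± 0.16 SE, adjusted p = 3.33e-11). Of 20 aminoacyl-tRNA synthetases 9 were lower and 1 higher, led by AARS, which charges alanine, at 132, 133 and 130 CPM against 454, 425 and 420 CPM (-1.72 ± 0.13 SE, adjusted p = 2.12e-12). In the day 0 comparison, PERK KO against wild type, the serine list had 4 members higher and none lower and the synthetase list 4 higher and none lower, but a fit of only those 6 libraries called no member of either list.

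ER folding genes were also lower on balance. Of 26 genes 11 were lower, 2 higher and 13 not called, with a median log2 fold change of -0.36, and 7 were lower without wild-type day 0 replicate 1. HSPA5, the BiP chaperone, was counted at 296, 292 and 305 CPM against 475, 425 and 415 CPM (-0.56 ± 0.18 SE, adjusted p = 0.0145, or 0.0564 without wild-type day 0 replicate 1). XBP1, the factor spliced by IRE1, fell to 65, 63.5 and 64.3 CPM from 157, 129 and 119 CPM (-1.07 ± 0.19 SE, adjusted p = 2.91e-05). PDIA6, a disulfide isomerase, fell to a mean of 240 from 390 CPM. HSP90B1, the ER paralog of HSP90, was not called at 748, 640 and 761 CPM against 724, 627 and 633 CPM, and CANX, a lectin chaperone that also holds the element, rose from 279 to 474 CPM, so genes with an ER stress element did not change alike. At PERK KO day 0 HSPA5 stood at 708, 1175 and 670 CPM, above every library of both other groups, and 10 of the 26 genes were called higher and 1 lower there, or none in a fit of only the 6 day 0 libraries (HSPA5 adjusted p = 0.0885). Of 15 eIF2 kinase, phosphatase and exchange factor genes 5 were lower and none higher at PERK KO day 5, or 3 lower without PERK KO day 5 replicate 3 or without wild-type day 0 replicate 1, and DESeq2 called 1 higher. Among the other kinases EIF2AK1 and EIF2AK2 were not called, and EIF2AK4, which senses amino acid shortage, was at 174 against 217 CPM, a call (adjusted p = 0.0288) that was lost without PERK KO day 5 replicate 2 or 3 or wild-type day 0 replicate 1 or 2, with adjusted p between 0.0655 and 0.0993.

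**Figure D4:**
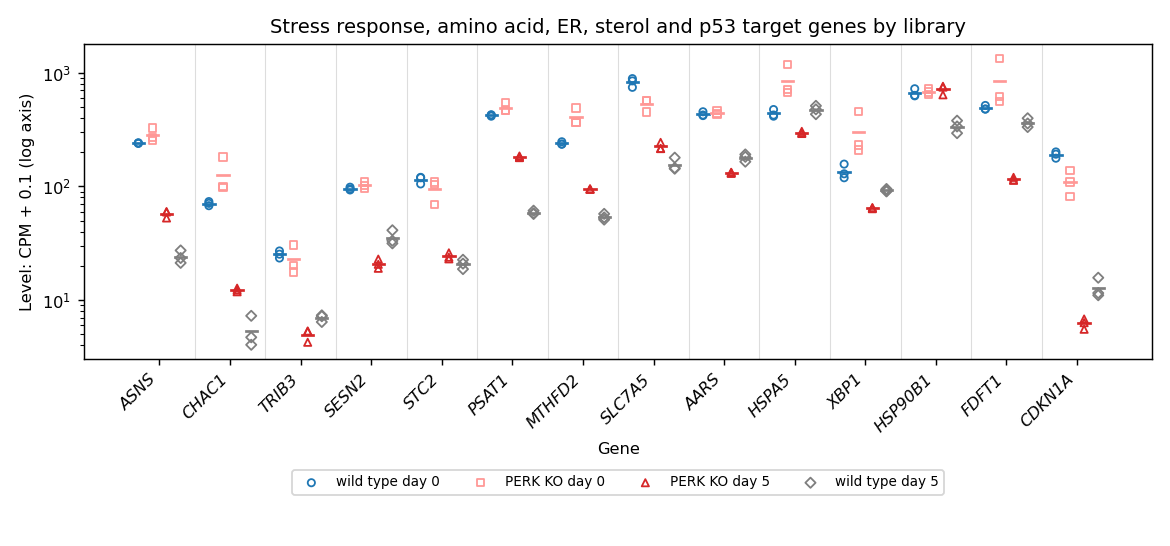
Level of 14 stress, amino acid, ER, sterol and p53 target genes in each library as CPM + 0.1 on a log axis, with 3 libraries per group (points) and the group mean (bar). PERK KO day 5 libraries lie below both day 0 groups for every gene shown other than HSP90B1, and for ASNS, CHAC1, PSAT1 and MTHFD2 the wild-type day 5 libraries lie lower still.

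Sterol and lipid synthesis genes were lower in 20 of 24 cases, with 1 higher (median log2 fold change -0.97). FDFT1, which makes squalene, was counted at 114, 113 and 120 CPM against 516, 480 and 479 CPM (-2.09 ± 0.21 SE, adjusted p = 1.78e-09). FASN, fatty acid synthase, fell to 1449, 1526 and 1435 CPM from 3405, 3937 and 3803 CPM, 1 of the largest losses in CPM. Wild-type day 5 averaged 363 CPM for FDFT1, above the PERK KO day 5 values.

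Among 26 glycolysis and hypoxia genes 12 were lower and 5 higher. The glucose carrier SLC2A1 fell to 140, 160 and 146 CPM from 487, 556 and 536 CPM (-1.83 ± 0.2 SE, adjusted p = 1.37e-08), SLC2A3 from 741 to 257 CPM and PKM, pyruvate kinase, from 1524 to 558 CPM. The hypoxia targets VEGFA and PDK1 were not called, and NDRG1, usually counted with them, was among the genes near 0 at PERK KO days 3 and 5. Genes of insulin signaling and FOXO factors were mixed, with 7 of 18 higher and 4 lower. The receptor INSR rose to 87.3, 85.3 and 86.1 CPM from 49.8, 43.4 and 41.4 CPM, IRS2 from 38.9 to 67 CPM and SESN3, a FOXO target, to 280, 243 and 274 CPM from 32.7, 31.6 and 32.7 CPM (3.04 ± 0.43 SE, adjusted p = 8.59e-07).

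Of 22 p53 targets 17 were lower and 1 higher, with a median log2 fold change of -1.08. CDKN1A, the p21 inhibitor of cell cycle kinases, was counted at 6.21, 6.7 and 5.42 CPM against 177, 201 and 192 CPM (-4.96 ± 0.24 SE, adjusted p = 1.38e-16). BTG2, an antiproliferative p53 target, fell to 4.77, 4.86 and 3.88 CPM from 41.8, 48.6 and 51.6 CPM. The exception was BCL2L11, the BIM death protein and also a FOXO target, which rose to 48, 43 and 43.4 CPM from 15.3, 15.5 and 14.8 CPM (1.56 ± 0.16 SE). Wild-type CDKN1A was also low at day 5, at 12.6 CPM on average, and PERK KO day 0 held 81.6, 138 and 109 CPM. Proliferation genes were mixed. Of 22 DNA replication genes 8 were higher and 4 lower (2 lower without any 1 of these libraries other than wild-type day 0 replicate 3), with MCM4 at 494, 513 and 487 CPM against 327, 327 and 309 CPM. Of 20 mitosis genes 5 were lower (3 without wild-type day 0 replicate 2) and 1 higher, and CCNB1, CDK1 and TOP2A were not called.

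Other large decreases were those of THY1, from the fibroblast and matrix list, and NTS, from no list. THY1, a surface protein used to sort human stem cells, fell to 54.7, 54 and 50.9 CPM from 1053, 1158 and 1199 CPM (-4.42 ± 0.18 SE, adjusted p = 5.58e-18). NTS, the peptide neurotensin, fell to 1.03, 0.594 and 1.28 CPM from 73.7, 61.9 and 61.7 CPM. LY6E, a surface protein encoded on the same arm of chromosome 8 as NDRG1, had 2 reads at PERK KO day 5 and 230 at wild-type day 0, and it was near 0 at PERK KO day 0 as well. Large increases outside the lists were GREB1L, at 132, 112 and 120 CPM from 0.527, 0.194 and 0 CPM, PKDCC, a secreted tyrosine kinase, at 558, 573 and 505 CPM from 17.1, 15.2 and 17.2 CPM, and FAM20A, of the secretory path, at 209, 195 and 220 CPM from 1.38, 1.36 and 0.841 CPM. Wild-type cells also counted GREB1L, at a mean of 127 CPM at day 3 and 42.2 CPM at day 5, and PKDCC, at 291 and 361 CPM. DPYSL3, a cytoskeletal protein of growing neurites, rose to 1352, 1195 and 1232 CPM from 504, 521 and 548 CPM.

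The gains in CPM among called genes also included APOE, at 1385, 1217 and 1303 CPM from 666, 660 and 558 CPM, and USP9X, a deubiquitinase, at 1447, 1361 and 1494 CPM from 305, 312 and 313 CPM. USP9X has a very long transcript and was low in PERK KO day 0 replicate 2 (89.8 CPM against 350 and 305 CPM), the library with short counted transcripts. The losses were led by mitochondrially encoded transcripts. MT-ND4, a subunit of complex I, was counted at 4183, 4178 and 4248 CPM against 5650, 10285 and 11925 CPM, where the wild-type libraries themselves differed widely. ACTB, often used as a reference, was called lower, at 3307 against 6386 CPM on average.

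**Figure D5:**
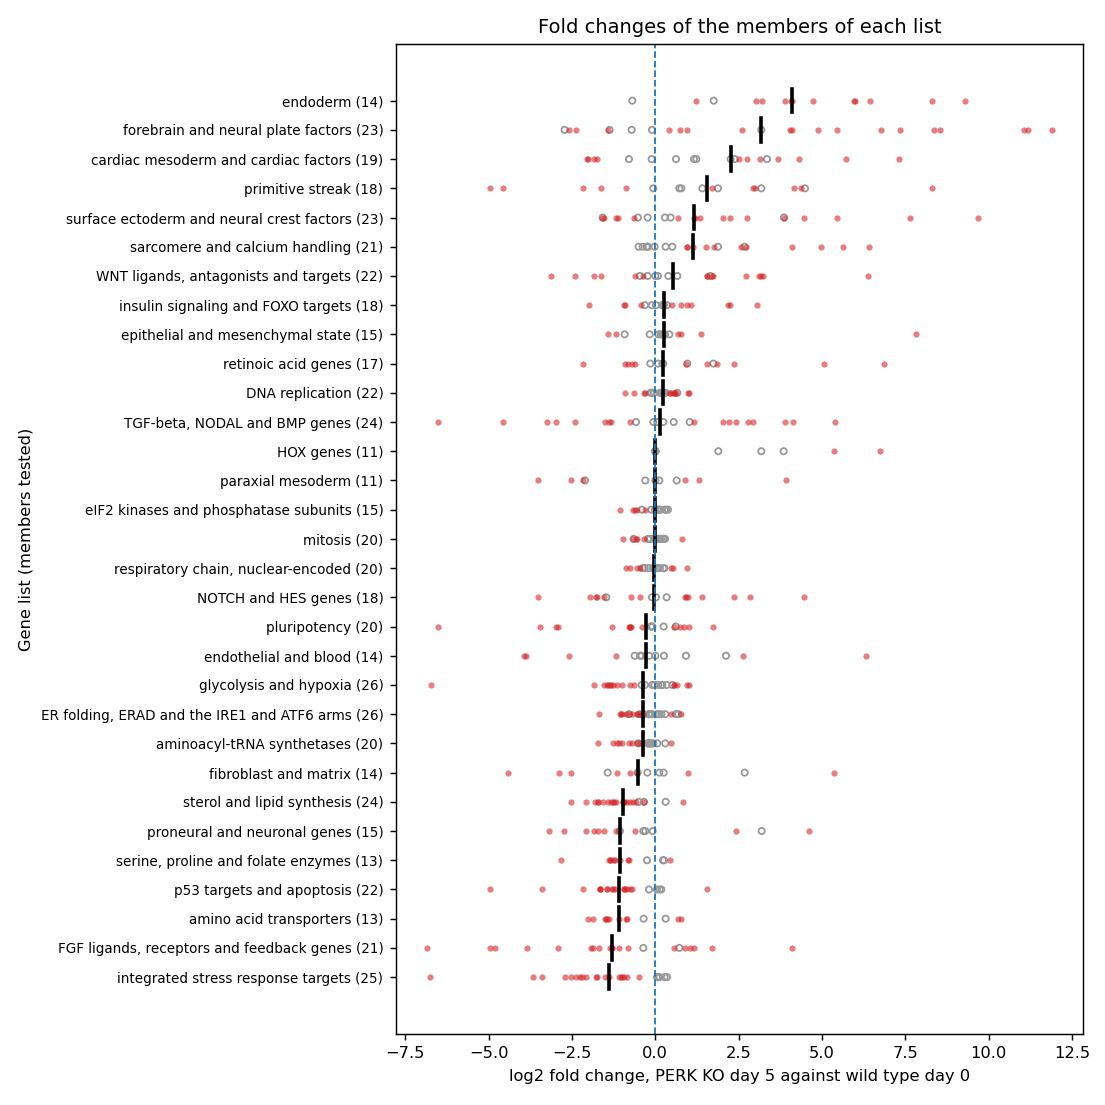
Log2 fold change of every tested member of 31 gene lists, PERK KO day 5 against wild type day 0; filled red points passed an adjusted p of 0.05, open gray points did not, black bars are list medians and the dashed line is the median of all genes. Values of genes with no read at wild-type day 0 depend on the prior count. The median is highest for endoderm genes, at low levels, and neural plate factors, and lowest for stress response targets (-1.4) and FGF genes (-1.3).

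CTSF, a lysosomal cathepsin, separated the PERK KO libraries by day. It was counted at 15.6, 15.2 and 13.9 CPM at wild-type day 0, at 0.124, 0 and 0.117 CPM at PERK KO day 0 and at 2.3, 1.73 and 1.99 CPM at PERK KO day 5. ZNF492, a zinc finger gene, was higher than in wild-type day 0 in both PERK KO groups, with 42.4, 35.8 and 44.7 CPM at day 0 and 22.4, 20.6 and 23.5 CPM at day 5 against 4.61, 2.91 and 2.73 CPM. For these 2 genes the genotypes already differed before differentiation, also in a fit of only the day 0 libraries (adjusted p = 0.00479 and 0.0062). Other genes described above were called at day 0 in that fit too. Among them were OTX2 (log2 fold change 1.38, adjusted p = 0.0236), DUSP6 (-1.37, 0.0252), SPRY4 (-1.93, 0.0327) and LY6E (-5.4, 0.00629). For SIX3, ETV5, NODAL, ASNS and THY1 the log2 fold change at day 0, PERK KO against wild type, was 1.74, 0.27, 0.17, 0.23 and -0.53, beside 11.9, -4.97, -4.57, -2.07 and -4.42 in the main comparison and 10.16, -5.24, -4.73, -2.3 and -3.88 for PERK KO day 5 against PERK KO day 0. Fitted values for SIX3 rest on 1 read at wild-type day 0 and are no bound. These comparisons share libraries, and the main value is the sum of the other 2.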

How the data were processed

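Poly(A) RNA libraries were read paired-end on an Illumina instrument. The submitters' processing notes name CASAVA, FastQC, STAR and RSEM with the builds GRCh38 and hg38; versions and the strand setting are not stated in these sources. Deposited values are RSEM expected counts, with TPM and effective lengths made by the authors alongside, per the file headers. All 58721 identifiers match GENCODE release 29.

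Expected counts were rounded (6.53% to 9.43% of values per library were fractional), filtered with filterByExpr, scaled by TMM and fitted with edgeR 4.0.16 in R 4.3.3 as 12 groups (24 residual degrees of freedom, biological coefficient of variation 18.7%). Called means a Benjamini-Hochberg adjusted p under 0.05 in the quasi-likelihood test over 19772 genes. SE is the fold change over the root of F. On data simulated for this comparison over 19772 genes the test called 11.9% of planted changes at 1.5-fold, 65.7% at 2-fold and 95.5% at 4-fold, plus 3 unchanged genes. Changes were planted in only 67, 67 and 66 genes, a far smaller share than the 44.5% called in the real comparison. The adjusted p depends on that share, so these rates are not the power of the real comparison. CPM use TMM-scaled library sizes. Folds against 0 reads use a floor of 3 counts over a group; ratios with 1 to 3 reads carry 95% exact binomial intervals, which cover counting error only. DESeq2 1.42.0 and limma 3.58.1 were alternatives; figures used matplotlib 3.10.9.

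Genes were named by rule: EIF2AK3, the largest, most significant and most abundant called changes (protein coding, at least 5 CPM in 1 group, no overlap of libraries, no clone-name symbols; the last 3 limits not for abundance), and, per list of 32, the first 3 members and the 5 smallest p; other list members are given by group means, and the NDRG1, ST3GAL1, ZFP41 and UBBP4 pattern was chosen after values were seen. The comparison, its groups and the lists (596 of 617 entries tested) were chosen with earlier results of these data known. Without a known strand, reads of a gene and of one overlapping it on the other strand cannot be told apart; this holds for EIF2AK3, POU5F1, NODAL, FEZF1, LHX5, ZIC1, PAX6, DUSP6, ETV4, FGF2, FGFR1, GATA6, THY1, CDKN1A, KRT18, MTHFD2, HSP90B1, PDIA6, SLC2A1, SESN3 and others. ASNS, ETV5, ZFP41, APOE, CYP26A1, CYP26C1, TNNT2, HOXB3 and MT-ND4 share exon positions with another gene on their strand, and ACTB has near-identical copies, so their counts are uncertain. THSD8, RSC1A1 and MAGEA12, which the rule also picks, are left out for that reason. Some genes that the rule or the lists name are not reported here.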

Additional observations from a re-analysis of the deposited data

Results flagged for a closer look

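For 3 genes of chromosome 8 the difference between PERK KO and wild type was not the same at day 5 and at day 10. The genes were chosen after their values were seen, for being near 0 at PERK KO days 3 and 5 and counted in every other PERK KO library, so their values describe that choice and no test is given. The log2 difference at day 5 minus that at day 10 was -7.66 for NDRG1, -5.34 for ST3GAL1 and -8.33 for ZFP41 in the edgeR fit. NDRG1 averaged 0.0341 CPM in PERK KO and 38 CPM in wild type at day 5, and 35.5 and 156 CPM at day 10. ST3GAL1 averaged 0.0531 and 56.5 CPM at day 5, and 5.08 and 117 CPM at day 10, so PERK KO was still far below wild type then. ZFP41 averaged 0.036 and 20.2 CPM at day 5, and 8.08 and 11.9 CPM at day 10. The other genes with the pattern were LPAR6 (-5.08), UBBP4 (-7.4) and the long noncoding RNA AC016205.1 (-7.98). The cause was not tested.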

How the results depend on the processing

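Counts of called genes stayed within 1.5 times the reported ones in the main comparison under the alternatives run, other than the 2-fold limit, which left 4681 genes, 2125 higher and 2556 lower. Leaving out 1 library at a time gave 7437 to 7740 genes (3604 to 3756 higher and 3833 to 4132 lower). A fit of only the 6 compared libraries called 11075, of which 8040 were also called in the reported fit. Between PERK KO and wild type at day 0 that kind of fit called 304 genes against 4177, and leaving out 1 library gave 2965 to 4546. Between PERK KO day 5 and PERK KO day 0 it called 5973 against 9645, and leaving out 1 library gave 8144 to 9761. The cause of these differences was not tested. Of 132 named genes called, 10 lost the call in at least 1 of 18 alternatives and none was called the other way: CYP26B1, EIF2AK4, GRHL2, HOXB3, HSPA5, MYH6, OTX1, SP5, TDGF1 and TTN. TTN turned sign, uncalled, in the limma fit of log2(TPM + 1) and with the length offset. That limma fit raised the median of all genes by 0.104 and took the calls of all 10 except GRHL2.

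Samples of the main comparison with the same replicate number showed no shared deviation (r of -0.016, -0.039 and -0.018 for the 3 pairs). For PERK KO day 5 with PERK KO day 0 the same-number pairs gave 0.051, 0.081 and 0.038, and the others -0.073 to 0.024. Such small values do not settle whether samples of 1 number shared a culture. With a replicate block the main comparison called 8906 genes in the 12-group fit (4283 higher, 4623 lower) and 10669 in the 6 libraries. Nearness also depended on the measure: wild-type day 1 was nearest by mean absolute difference and by fewest called genes, and day 0 by the other 3 measures. Genes gaining a call in some alternative were CCNB1, COL1A1, EIF2AK3, ID3, PPP1R15A, TBXT and VEGFA. Depth limits genes with few reads, whose folds are given as bounds or with intervals.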
